A study of Xenopus tropicalis with 6 samples.

Results

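Genes of the switch that drives cells from G2 phase into mitosis were examined in *dyrk1a* CRISPR and control brains of *Xenopus tropicalis* tadpoles. The genes are *cdk1*, the cyclin genes *ccna2*, *ccnb1*, *ccnb1.2* and *ccnb2*, and the regulators *cdc20*, *cdc25b*, *cdc25c*, *wee1* and *plk1*. These 10 were chosen by their known role, with earlier results of these data known, and found by gene symbol. The paper had already listed *cdk1*, cyclin A2, cyclin B1 and cyclin B2 as increased in the same libraries. Comparisons of these genes with all genes are therefore not independent of earlier results. Of the 10, 8 have a line under their own symbol among the 15076 tested gene models. No line carries the symbol *ccnb1* or *wee1*, so these 2 genes were not analysed here. The study compared brains of stage 46 tadpoles after bilateral injection of Cas9 protein and a guide RNA against *dyrk1a*, a protein kinase gene, with uninjected brains of the same stage. Each of the 3 CRISPR and 3 control libraries holds 3 pooled brains of wild-type stock. The CRISPR brains were the most mutagenized ones by genotyping of the carcasses, and each is a mosaic of edited cells. The controls received neither Cas9 nor a guide, so the effects of injection and of the mutation cannot be told apart.

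Cdk1 is a kinase that acts only when bound to a cyclin, cyclin A from S phase onwards and cyclin B at entry into mitosis. Wee1 and its relative Pkmyt1 hold the complex inactive by phosphorylating Cdk1, and Cdc25 phosphatases remove these phosphates. Plk1 favours activation by acting on both Cdc25 and Wee1, and Cdc20 later directs the anaphase-promoting complex (APC/C) to destroy cyclin B so that cells can leave mitosis. In many dividing cells the transcripts of *cdk1*, the mitotic cyclins, *plk1* and *cdc20* accumulate in G2 and M phase, and in the tadpole brain dividing progenitors line the ventricles.

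Gene counts summed to between 21564980 and 28100633 in the CRISPR libraries and between 9603583 and 35071943 in the control libraries. Levels are given as cpm, the count scaled to a common library size of 1000000 with TMM factors, and 1 count was worth 0.0351 to 0.0470 cpm in CRISPR libraries and 0.0291 to 0.106 cpm in control libraries. Transcripts of *dyrk1a* itself were at 16.8, 13.2 and 15.04 cpm in CRISPR replicates 1 to 3, against 21.4, 10.8 and 14.8 cpm in control replicates 1 to 3. These groups overlapped (log2 fold change -0.07 ± 0.24 SE, edgeR adjusted p = 0.936). The gene count covers the whole transcript, and an edit in one exon need not alter it, so this level does not check the labels. The paper itself reports lower read depth around the guide's target site in every injected replicate and not in controls. Another model, *dyrk1a.2*, averaged 28.6 and 28.1 cpm over the CRISPR and control pools, with overlapping groups (log2 fold change 0.02, edgeR adjusted p = 0.963). CRISPR replicate 3 and control replicate 1 deviated from their group means in a like way over the 15076 genes (r = 0.31 across genes, which are not independent replicates). This was the highest r of all pairs of a CRISPR and a control library, and the lowest was -0.29, for CRISPR replicate 3 and control replicate 2. Deviations cancel within a group, so values of both signs arise by construction. The fold changes of the members and their ratios are also given without both CRISPR replicate 3 and control replicate 1.

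*cdk1*, the kinase at the centre of the switch, was at 15.2, 16.5 and 22.6 cpm in CRISPR replicates 1 to 3, against 5.82, 4.03 and 7.09 cpm in control replicates 1 to 3. The lowest CRISPR library was 2.14 times the highest control library. It averaged 18.1 ± 3.94 cpm over the CRISPR pools and 5.65 ± 1.54 cpm over the control pools (n = 3 each, SD). The log2 fold change was 1.70 with a 95% interval of 1.16 to 2.24, and its adjusted p was 0.0696 by edgeR and 6.02e-08 by DESeq2. By p-value *cdk1* stood at rank 7 of all genes tested with edgeR. Without CRISPR replicate 3 and control replicate 1 its log2 fold change was 1.56 (edgeR adjusted p = 0.0809).

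**Figure D1:**
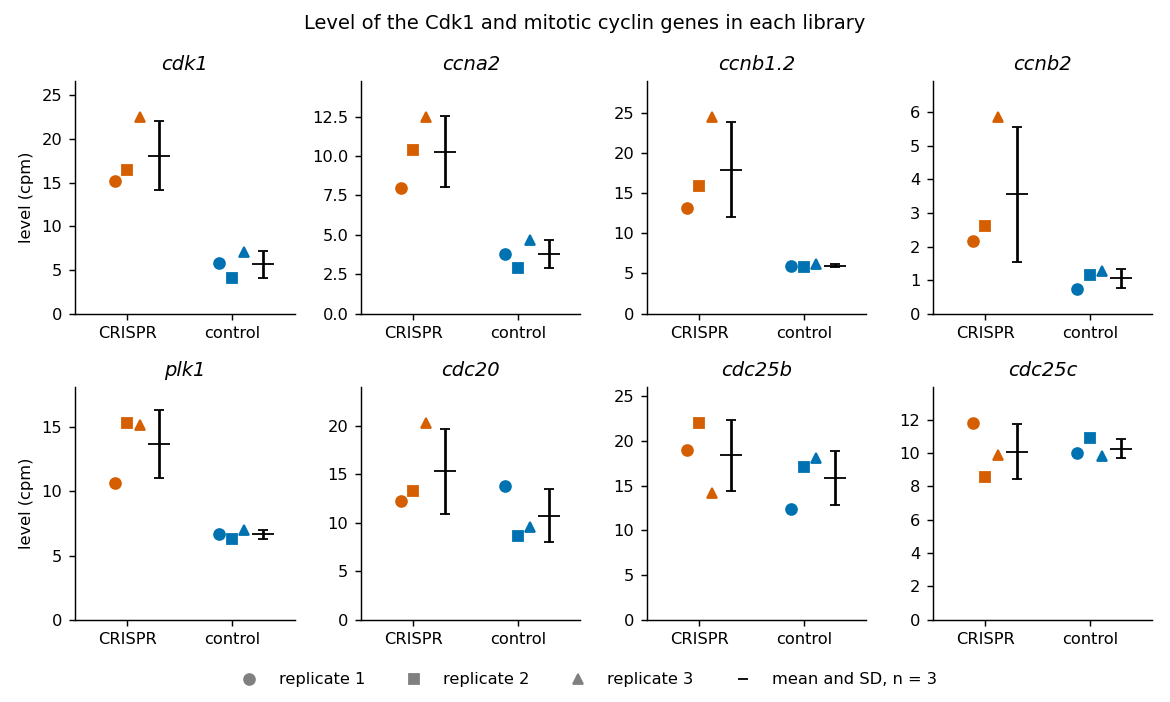
Level in cpm of each of the 8 measured genes in every library, with *dyrk1a* CRISPR left and control right, symbols for replicate numbers, and the mean with its SD (n = 3) beside the points. For *cdk1*, *ccna2*, *ccnb1.2*, *ccnb2* and *plk1* all CRISPR libraries lie above all control libraries, while for *cdc20*, *cdc25b* and *cdc25c* the groups overlap.

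The cyclin partners of Cdk1 showed the same separation. *ccna2* encodes cyclin A2, the cyclin of S and G2 phase, and was at 7.96, 10.4 and 12.5 cpm in CRISPR replicates 1 to 3, against 3.79, 2.87 and 4.66 cpm in control replicates 1 to 3. Its log2 fold change was 1.47 (95% interval 0.90 to 2.04, adjusted p = 0.0931 by edgeR and 8.62e-05 by DESeq2). *ccnb1.2*, which encodes a cyclin B1, was at 13.2, 15.9 and 24.5 cpm in CRISPR replicates, against 5.88, 5.78 and 6.14 cpm in control replicates. The control libraries were nearly level for this gene, with a coefficient of variation of 3.09%, while the CRISPR libraries varied by 33.1%. Its log2 fold change was 1.59 (95% interval 1.06 to 2.12, adjusted p = 0.0696 by edgeR and 7.13e-07 by DESeq2). Without CRISPR replicate 3 and control replicate 1 the log2 fold changes were 1.33 for *ccna2* and 1.29 for *ccnb1.2* (edgeR adjusted p = 0.116 and 0.0809).

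*ccnb2*, which encodes cyclin B2, was the scarcest of the measured genes in reads, with 62, 60 and 125 counts in CRISPR replicates 1 to 3, against 25, 28 and 12 counts in control replicates 1 to 3. These counts gave 2.17, 2.62 and 5.87 cpm in CRISPR brains, against 0.728, 1.16 and 1.27 cpm in control brains. Each CRISPR library was above every control, and CRISPR replicate 3 exceeded the sum of the other CRISPR replicates. *ccnb2* passed the filter, more than 1 cpm in 3 libraries, through its CRISPR libraries, since control replicate 1 was below it. The log2 fold change was 1.79 with a wide 95% interval of 0.78 to 2.81 (adjusted p = 0.158 by edgeR and 0.0199 by DESeq2). Without CRISPR replicate 3 it was 1.23, and DESeq2 no longer called the gene (adjusted p = 0.353). DESeq2 did not call it without control replicate 2 or 3 either (adjusted p = 0.0894 and 0.0553), and gave no adjusted p without control replicate 1. Without both CRISPR replicate 3 and control replicate 1 the log2 fold change was 0.98 (edgeR adjusted p = 0.318).

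*plk1*, the Polo kinase that promotes mitotic entry and spindle assembly, was at 10.7, 15.3 and 15.1 cpm in CRISPR replicates 1 to 3, against 6.67, 6.28 and 6.98 cpm in control replicates 1 to 3. The groups did not overlap, and the lowest CRISPR library was 1.53 times the highest control library. The log2 fold change was 1.05 (95% interval 0.61 to 1.49, adjusted p = 0.1001 by edgeR and 0.000827 by DESeq2). Without both CRISPR replicate 3 and control replicate 1 the log2 fold change was 0.98, and DESeq2 did not call the gene (adjusted p = 0.0596).

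The gene for the mitotic exit factor and those for the phosphatases did not separate the groups. *cdc20* was at 12.3, 13.3 and 20.3 cpm in CRISPR replicates 1 to 3, against 13.8, 8.69 and 9.63 cpm in control replicates 1 to 3. CRISPR replicates 1 and 2 lay below control replicate 1, and both libraries that deviated together were the highest of their groups. The log2 fold change was 0.50 (95% interval -0.05 to 1.05, adjusted p = 0.422 by edgeR and 0.38 by DESeq2). Without CRISPR replicate 3 it was 0.24, without control replicate 1 it was 0.75, and without both it was 0.49 (edgeR adjusted p = 0.331).

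*cdc25b*, a phosphatase gene that is also expressed outside mitosis, was at 19.01, 22.1 and 14.1 cpm in CRISPR replicates 1 to 3, against 12.4, 17.1 and 18.1 cpm in control replicates 1 to 3. Here the libraries that deviated together were the lowest of their groups. The log2 fold change was 0.23 (95% interval -0.24 to 0.69, edgeR adjusted p = 0.688), and without both libraries it was also 0.23. *cdc25c*, another phosphatase gene of this family, was at 11.8, 8.56 and 9.87 cpm in CRISPR replicates, against 10.02, 10.9 and 9.84 cpm in control replicates. Its log2 fold change was -0.02 and its 95% interval ran from -0.43 to 0.38, a fold between 0.740 and 1.31 (edgeR adjusted p = 0.973). The sign of this value changed without CRISPR replicate 2 (0.077) and without control replicate 2 (0.023), and it was -0.03 without both CRISPR replicate 3 and control replicate 1.

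Of the 8 measured genes edgeR called 0 at an adjusted p under 0.05, where it called 0.00% of all tested genes higher and 0.00663% lower. The unadjusted p was under 0.05 for *cdk1*, *ccna2*, *ccnb1.2*, *ccnb2* and *plk1*, all with positive values, 5 of 8 where 6.79% of all genes did so, and for 0 with negative values, where 6.14% did. DESeq2, the tool that the paper used, called the same 5 higher at an adjusted p under 0.05, where it called 1.15% of all genes higher. It called 0 of 8 lower, where it called 0.809% of all genes lower. Limma-voom and limma on the deposited log2 values called 0 of 8, where each called 0 of all 15076 genes higher and 1 lower. With no filter on low counts, edgeR also called these 5 genes higher, where it called 0.502% of all genes. Their edgeR adjusted p then ran from 0.000854 for *cdk1* to 0.0464 for *ccnb2*. Every CRISPR library exceeded every control library in 5 of 8, against 9.13% of all genes, and 0 of 8 had the opposite order, against 9.72%. A log2 fold change of at least 1 was found for the same 5, against 1.24% of all genes, and 7 of 8 had a positive one, against 51.9%. The median over the 8 was 1.26, beside 0.01 for all genes. Without *ccnb2*, which needed its CRISPR libraries to pass the filter, each of these counts of 5 of 8 is 4 of 7, 6 of 7 values are positive and the median is 1.05. The shares of all genes that pass by their control libraries alone were not counted. With 3 libraries against 3, an exact two-sided permutation test of a single gene cannot give a p under 0.1, and it gave p = 0.1 for each of these 5 genes. In *cdc20*, *cdc25b* and *cdc25c* the same exact permutation test gave p = 0.3, 0.4 and 0.9. These are brain pools, so more dividing cells and more RNA per cell cannot be told apart.

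Within a library, the level of *cdk1* relative to the other genes was compared between groups as a log2 ratio, in which gene length cancels. Relative to *cdc25c* the ratio ran from 0.36 to 1.19 in CRISPR libraries and from -1.43 to -0.47 in control libraries. The difference was 1.73 on the log2 scale (exact permutation p = 0.1, the smallest possible, and 0.14 adjusted over 7 pairs). The differences relative to *cdc25b*, *cdc20* and *plk1* were 1.48, 1.19 and 0.67, each without overlap between groups (exact permutation p = 0.1, adjusted 0.14). Relative to *ccna2* the difference was 0.24, also without overlap (exact permutation p = 0.1, adjusted 0.14). The ratio of *cdk1* to *ccnb1.2* ran from -0.12 to 0.20 in CRISPR libraries and from -0.52 to 0.21 in control libraries, a difference of 0.15 (exact permutation p = 0.7). Relative to *ccnb2* the difference was 0.04, with overlap between groups (exact permutation p = 1). Thus *cdk1* was higher relative to its phosphatases and to *cdc20* in all CRISPR libraries, whereas its ratios to *ccnb1.2* and *ccnb2* overlapped. Since *cdk1* itself separated the groups, its ratio to a gene with little change tends to separate them too. These ratios therefore restate the levels given above and are no further support. The share of all genes whose ratio to *cdk1* separates the groups was not counted. Without CRISPR replicate 3 and control replicate 1 the differences were 1.61 for *cdc25c*, 1.34 for *cdc25b*, 1.08 for *cdc20*, 0.62 for *plk1*, 0.25 for *ccna2* and 0.28 for *ccnb1.2*, while that for *ccnb2* was 0.59, with no test of these 4 libraries.

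**Figure D2:**
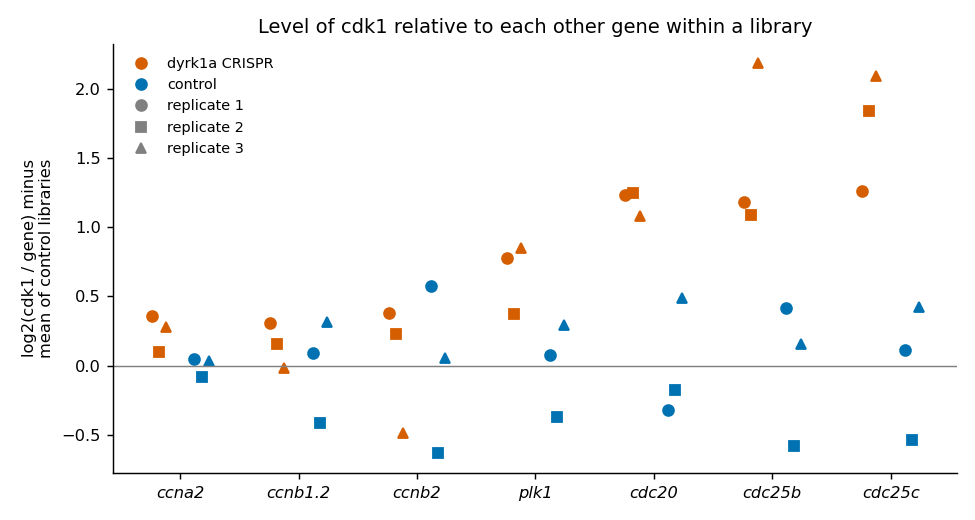
Log2 ratio of *cdk1* to each other gene in every library, minus the mean of the control libraries for that gene, with *dyrk1a* CRISPR libraries left and control libraries right. The points of the groups overlap for *ccnb1.2* and *ccnb2* and are apart for the other 5 genes, with a difference of 1.73 for *cdc25c*.

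The exon counts show whether a difference lies along the whole gene. An exon bin is an exon or exon part counted by itself, and bins with at least 10 counts over the 6 libraries were kept. All 8 kept bins of *cdk1* had all CRISPR libraries above all control libraries, with log2 ratios of mean bin cpm from 1.35 to 1.90. The same held for 8 of 9 bins of *ccna2*, 9 of 10 of *ccnb1.2*, 6 of 8 of *ccnb2* and 9 of 11 of *plk1*, against 5.65% of all 182576 kept bins. The bins are slices of the same reads as the gene counts and overlap in them, so they are no further replicates. For *cdc20* all 15 bins had positive log2 ratios, from 0.16 to 0.70, but 0 separated the groups. *cdc25b* had 1 of 17 bins above, and *cdc25c* had 0 of 17 above and 2 of 17 below, where 7.75% of all bins were below.

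The share of a bin in all bin counts of its gene tells whether transcripts kept their exon makeup. Shares separated the groups in 7 of the 95 kept bins of the 8 genes, against 9.47% of all bins. That share is no higher than in the background. Of these bins 2 lie in *ccnb2*, 2 in *cdc25b* and 1 each in *cdk1*, *ccna2* and *plk1*. In *ccnb2* they are bins 9 and 10, the last in bin order. Bin 10 took 10.6% ± 1.30 of that gene's counts over the CRISPR pools and 3.61% ± 3.16 over the control pools (n = 3 each, SD). Bin 9 took 13.8% ± 1.58 and 8.13% ± 2.04. These bins rest on only 75 and 104 counts over all 6 libraries. The log2 ratios of *ccnb2* were 2.01, 2.45 and 2.98 in bins 8, 9 and 10, against 1.12 to 1.70 in bins 3 to 7. The cause of this uneven rise was not tested. In *cdk1* the bin was 12, also the last, with 13.8% ± 0.533 over the CRISPR pools and 11.4% ± 0.488 over the control pools.

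**Figure D3:**
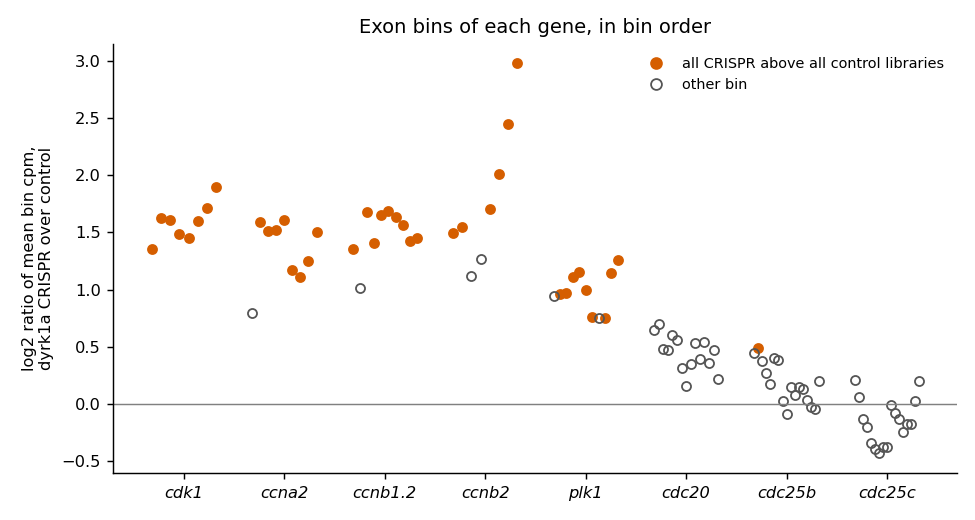
Log2 ratio of mean bin cpm, *dyrk1a* CRISPR over control, for every kept exon bin of the 8 genes in bin order, with filled points where all CRISPR libraries lie above all control libraries. The bins of *cdk1* lie between 1.35 and 1.90 and those of *cdc25c* between -0.43 and 0.21.

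The wider G2 and M machinery was described from 10 lists with 74 genes, of which 66 gene models outside the members were tested. None passed with edgeR adjusted over all genes (0 of 66), where edgeR called 0.00% of all genes higher and 0.00663% lower. Below an unadjusted p of 0.05 lay 11 with a positive value, where 6.79% of all genes did, and 0 with a negative one, where 6.14% did. DESeq2 called 5 higher, where it called 1.15% of all genes. The median log2 fold change was 0.07, beside 0.01 for all tested genes. Every CRISPR library exceeded every control in 13 of the 66, against 9.13% of all genes, and 2 had the opposite order, against 9.72%. Of the 11 genes, *cks1b*, *bora* and *fbxo5* passed the filter on low counts only with their CRISPR libraries. Among the 60 genes above 1 cpm in all 3 control libraries, 8 lay below an unadjusted p of 0.05, DESeq2 called 4, and 10 had every CRISPR library above every control. The matching shares of all genes above 1 cpm in all 3 control libraries were not counted.

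The list of other Cdk1 partners held 4 of the 11 genes, from 6 tested, where 6.79% of all genes passed with a positive value. The list is a loose one. It also takes in the cyclin F gene *ccnf* and *cdk2*, a separate kinase gene that is among these 4. *ccnb3*, another B cyclin gene, was at 13.6, 11.8 and 15.6 cpm in CRISPR replicates 1 to 3, against 6.70, 6.74 and 7.41 cpm in control replicates 1 to 3. Its log2 fold change was 0.98 ± 0.18 (SE, adjusted p = 0.0931 by edgeR and 0.000685 by DESeq2). *cks1b*, which encodes a small subunit that binds Cdk complexes, was at 2.77, 4.32 and 3.76 cpm in CRISPR replicates, against 0.728, 1.04 and 1.16 cpm in control replicates. Its log2 fold change was 1.93 ± 0.35 (SE, adjusted p = 0.0931 by edgeR and 0.000819 by DESeq2). Its paralog *cks2* and the S phase kinase gene *cdk2* had log2 fold changes of 0.92 and 0.75 (edgeR adjusted p = 0.305 and 0.267). *ccna1* and *ccnf* had 0.15 and -0.29, so the values were not positive for every cyclin gene of the list.

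Of the kinases that restrain Cdk1, 0 of 3 tested genes passed the unadjusted threshold. Among all genes 6.79% passed it with a positive value and 6.14% with a negative one. *pkmyt1*, whose product phosphorylates Cdk1 at membranes, was at 14.4, 14.3 and 16.4 cpm in CRISPR replicates 1 to 3, against 16.9, 16.4 and 16.4 cpm in control replicates 1 to 3 (log2 fold change -0.14, edgeR adjusted p = 0.724). The checkpoint kinase genes *chek1* and *chek2* had log2 fold changes of -0.44 and 0.10. *cdc25a*, the phosphatase gene of earlier cell cycle steps, had 0.58 ± 0.37 (SE, edgeR adjusted p = 0.533). The Cdk-activating kinase genes *cdk7*, *ccnh* and *mnat1* lay between -0.07 and 0.15, with 0 of 3 past the unadjusted threshold.

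In the Polo and Aurora A module, *tpx2* and *bora* passed the unadjusted threshold, 2 of 6 genes where 6.79% of all genes did with a positive value. *bora* was under 1 cpm in every control library. *tpx2*, an activator of Aurora A on spindle microtubules, was at 9.15, 9.04 and 10.5 cpm in CRISPR replicates 1 to 3, against 3.99, 6.49 and 3.49 cpm in control replicates 1 to 3 (log2 fold change 1.01, adjusted p = 0.153 by edgeR and 0.0174 by DESeq2). *bora*, whose product helps Aurora A to activate Plk1, was at 1.58, 3.80 and 2.07 cpm in CRISPR replicates, against 0.728, 0.874 and 0.952 cpm in control replicates (log2 fold change 1.56, edgeR adjusted p = 0.181). The Aurora A gene *aurka* was near the floor of the filter, at 0.972 ± 0.272 cpm over the CRISPR pools and 0.851 ± 0.562 cpm over the control pools (n = 3 each, SD).

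Cyclin destruction was covered by lists of APC/C subunits and of APC/C partners. Of 13 tested APC/C subunit genes 0 passed the unadjusted threshold in either direction, where 6.79% and 6.14% of all genes did, their median log2 fold change was 0.06, and *anapc13.1* and *anapc10*, those of lowest p, had log2 fold changes of 0.56 and 0.29. Of 4 tested partners *ube2c* and *fbxo5* passed it, and the difference between the lists was not tested. *ube2c*, the ubiquitin-conjugating enzyme gene that serves APC/C, was at 8.56, 6.16 and 9.07 cpm in CRISPR replicates 1 to 3, against 5.27, 2.29 and 3.39 cpm in control replicates 1 to 3 (log2 fold change 1.1, adjusted p = 0.208 by edgeR and 0.0476 by DESeq2). *fbxo5*, an inhibitor of APC/C, had a log2 fold change of 0.99 (edgeR adjusted p = 0.342), while the coactivator gene *fzr1* had 0.18 and the ubiquitin-conjugating enzyme gene *ube2s* had -0.04.

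Greatwall and PP2A genes, which protect Cdk1 substrates from dephosphorylation or remove the phosphates, held 0 of 10 genes past the unadjusted threshold. Of all genes 6.79% passed it with a positive value and 6.14% with a negative one. The log2 fold changes of these 10 ran from -0.09 to 0.33. The list of CDK inhibitors and G2 brakes includes *gtse1*, a gene named for its expression in G2 and S phase and not itself a CDK inhibitor. It was at 4.87, 4.94 and 6.01 cpm in CRISPR replicates 1 to 3, against 1.95, 2.87 and 2.86 cpm in control replicates 1 to 3 (log2 fold change 1.06, adjusted p = 0.153 by edgeR and 0.0363 by DESeq2). *gadd45g* had 0.30 and the CDK inhibitor gene *cdkn1a* had 0.10, while *gadd45a* and *gadd45b* had -0.17 and -0.28. Of 15 tested genes for transcription factors of G2 and M genes, 1 passed the unadjusted threshold, which is no more than the 6.79% of all genes. It was the histone chaperone gene *rbbp4* (log2 fold change 0.32, edgeR adjusted p = 0.338). *foxm1*, a transcription factor gene whose product activates G2 and M genes, was at 0.982, 3.23 and 1.50 cpm in CRISPR replicates, against 0.641, 1.71 and 1.80 cpm in control replicates, and *mybl2* had a log2 fold change of -0.17.

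**Figure D4:**
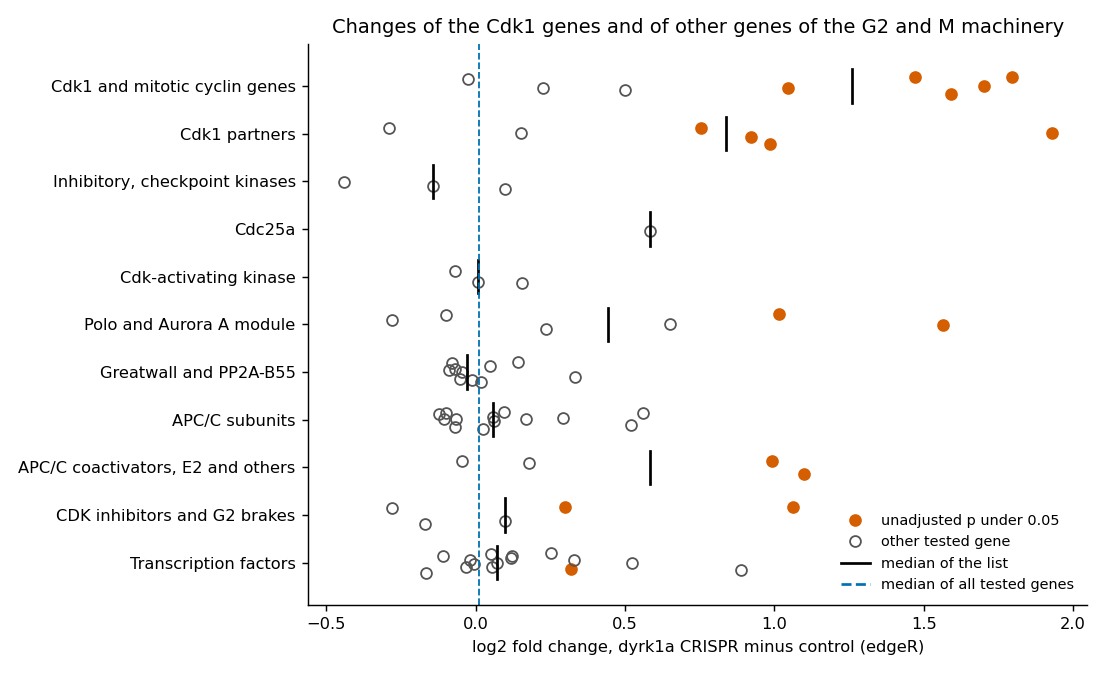
Log2 fold change, *dyrk1a* CRISPR minus control, of the 8 measured genes and of 66 other tested genes in 10 lists of the G2 and M machinery, with filled points for an unadjusted p under 0.05, short lines for list medians and a dashed line for the median of all tested genes at 0.01. Filled points lie among the Cdk1 genes, the list of Cdk1 partners and *cdk2*, the Polo and Aurora A module and the APC/C partners. They also lie among the genes listed as brakes and the transcription factors, and 0 lie among the Greatwall, APC/C subunit and inhibitory kinase genes.

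To find genes with a like pattern, the root mean square difference of centred log2 cpm from that of *cdk1* was taken over the 6 libraries. A small value means a like pattern, and the median over all genes was 0.91. *ccna2* (0.15) and *ccnb1.2* (0.24) stood at ranks 1 and 2 of the 12508 other genes with a symbol, and *plk1* (0.41) and *ccnb2* (0.42) at ranks 32 and 39. The 5 closest genes outside the members were *pbk*, which encodes a mitotic kinase (0.25), *abracl* (0.25), *mrc1* (0.26), the kinetochore gene *spc24* (0.29) and *pimreg* (0.29). Of these, *mrc1* and *spc24* averaged 0.839 ± 0.104 and 0.866 ± 0.377 cpm over the control pools (n = 3, SD). They needed CRISPR libraries to pass the filter of more than 1 cpm in 3 libraries, which favours a pattern like that of *cdk1*. *cdc25b* and *cdc25c* had values of 0.86 and 0.93, near the median of all genes. The measure counts the difference between groups as well as the spread within them, and the points share the same libraries.

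Markers of dividing cells and of other cell types also differed between these libraries. The summed level of 6 proliferation marker gene models, *mki67*, *pcna*, *top2a*, *tyms* and a pair of *rrm2* models, ran from 81.2 to 98.2 cpm in CRISPR libraries and from 55.8 to 76.4 cpm in control libraries. The sum was carried by *pcna*, at 38.04 and 31.3 mean cpm in CRISPR and control brains (1.21-fold by the fit), and by *mki67*, at 22.4 and 17.3 mean cpm (1.28-fold). In the same list *top2a* was 2.57-fold and *rrm2.2* 2.33-fold higher (edgeR adjusted p = 0.0931 and 0.122, DESeq2 adjusted p = 0.000122 and 0.0054), folds between those of *plk1* (2.07) and *ccna2* (2.77). The other *rrm2* model, *rrm2.1*, went the other way at 0.872-fold, and *tyms* was 1.61-fold, each with overlapping groups. Relative to that sum within a library, *cdk1* was 2.27-fold higher in CRISPR brains, *ccna2* 1.92-fold, *ccnb1.2* 2.10-fold, *ccnb2* 2.29-fold and *plk1* 1.44-fold, each without overlap between groups (exact permutation p = 0.1, adjusted 0.16 over 16 ratios). For *cdc20*, *cdc25b* and *cdc25c* this ratio was 1.03-fold, 0.805-fold and 0.699-fold, each with overlap. Without CRISPR replicate 3 and control replicate 1 it was 1.91-fold for *cdk1*, 1.62-fold for *ccna2*, 1.61-fold for *ccnb1.2*, 1.30-fold for *ccnb2* and 1.28-fold for *plk1*, with no test. The genes whose ratio separated the groups already did so by level, and the marker sum rose less. These ratios therefore largely restate the levels and are no further support. The share of all genes whose ratio to this sum separates the groups was not counted. The 11 neural progenitor markers summed to 4907 to 5458 cpm in CRISPR libraries and 3760 to 4529 cpm in control libraries, with all 11 log2 fold changes positive. Much of the difference was *fabp7*, at 1971 ± 330 and 1266 ± 372 cpm over the CRISPR and control pools (n = 3 each, SD). In 7 of the 11 all CRISPR libraries lay above all controls, against 9.13% of all genes. *sox2*, *sox9*, *pax6* and *nes* were 1.03-fold to 1.14-fold with overlapping groups. Relative to the progenitor sum *cdk1* was 2.50-fold higher, again without overlap (exact permutation p = 0.1, adjusted 0.16), and the same limits hold. Without CRISPR replicate 3 and control replicate 1 this ratio was 2.18-fold, with no test.

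The 12 neuron markers summed to 9134 to 9641 cpm in CRISPR libraries and 10272 to 10775 cpm in control libraries. Of these, 5 had every CRISPR library below every control, against 9.72% of all genes, and 1, *tubb3*, had the opposite order (log2 fold change 0.27), against 9.13%, while *map2* (0.04) and *stmn2* (-0.02) were near 0. The 8 skeletal muscle genes summed to 20.2 to 33.3 cpm in CRISPR libraries and 65.02 to 217 cpm in control libraries, and 7 of them had all CRISPR libraries below all controls, against 9.72% of all genes. The 3 choroid plexus genes summed to 618 to 1042 cpm in CRISPR libraries and 311 to 449 cpm in control libraries, nearly all of it *rbp4* (mean 740.3 and 294 cpm), while *clic6* and *kcnj13* were 1.27-fold and 1.26-fold with overlapping groups. The 6 genes of meninges and mesenchyme summed to 88.8 to 112 cpm in CRISPR libraries and 53.4 to 66.6 cpm in control libraries, with negative log2 fold changes for *lum* (-0.84) and *dcn* (-0.50). Microglia and immune genes, 3 of them, summed to 24.9 to 31.3 cpm in CRISPR libraries and 15.3 to 20.8 cpm in control libraries. Sums of 6 erythrocyte and 4 endothelial genes overlapped between the groups. Stress and immediate early genes, 11 of them, summed to 1974 to 2289 cpm in CRISPR libraries and 2430 to 2513 cpm in control libraries. In 4 of the 11 every CRISPR library lay below every control, against 9.72% of all genes. Log2 fold changes were positive for *hspa8* (0.19), *jun* (0.14) and *hspa5* (0.08). The part of these cell types in the levels of the Cdk1 genes was not tested.

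**Figure D5:**
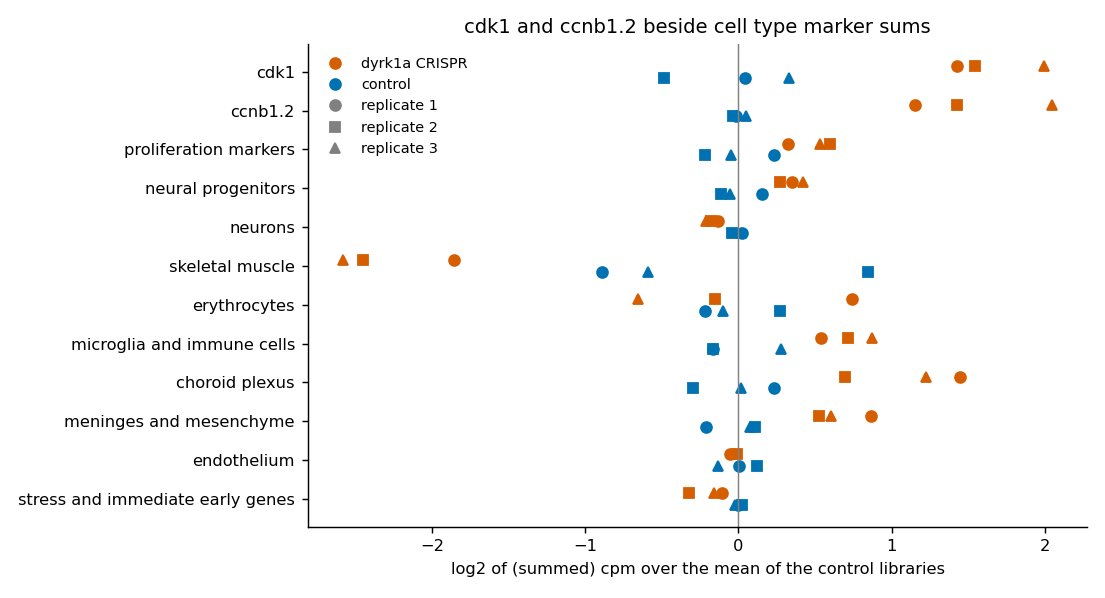
Log2 of the level of *cdk1*, of *ccnb1.2* and of the summed level of each marker list in every library, relative to the mean of the control libraries, with *dyrk1a* CRISPR above control in each row. The *cdk1* points of the groups are farther apart than those of the proliferation and progenitor marker sums, and muscle markers lie on the other side.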

How the data were processed

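RNA was measured by polyA-selected, unstranded, low-input sequencing. The authors used STAR v2.7.3 for alignment and version 9.1 of the XenBase genome. They deposited raw counts per gene (34229 models), raw counts per exon bin made with DEXSeq (267751 lines, 5 of them special counters, left out here), and log2 values, which equal log2(cpm + 1) of the same gene counts. The gene counter is not given in the sources used here, so reads of antisense genes, or of paralogs such as the B cyclins, may be shared. Counts in no exon made up 5.02% to 5.62% of the summed exon bin and special counts of each library. A read can count in several bins, so this is not the share of reads.

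The study's filter was kept, above 1 cpm in 3 or more libraries (15076 models). The test on these raw counts was that of edgeR 4.0.16 under R 4.3.3 (TMM, quasi-likelihood F test, with p-values adjusted over all genes by the Benjamini-Hochberg method). Fold changes are CRISPR over control, and intervals are 95% intervals of that fit. The paper's own test was DESeq2 with shrunken fold changes, so edgeR is a change of test. DESeq2 as run here, without that shrinkage, called 173 genes higher and 122 lower. Alternatives were DESeq2 1.42.0, limma 3.58.1 (voom, and the deposited log2 values), other factors and filters, the replicate block, and leaving out libraries. The removal of CRISPR replicate 3 with control replicate 1, and the counts over genes above 1 cpm in all control libraries, were chosen after seeing the data. Scripts were tested on simulated counts. A p-value here measures spread between pools of different animals. Within each group all libraries differed beyond sampling noise.

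The members, gene lists and alternatives were chosen with earlier results of these data known. Named are all members, *dyrk1a*, up to 4 genes per pathway list by smallest p (with further genes of pathway and marker lists named after their values were seen), and the 5 genes closest to *cdk1*. No sequence is shown, since no sequence of these genes was used here. Promoter and protein motifs were therefore not analysed here.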

Additional observations from a re-analysis of the deposited data

How the results depend on the processing

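All 8 measured genes except *cdc25c* kept a positive log2 fold change under all 22 alternatives. DESeq2 called 5 members and 5 pathway genes higher where edgeR called 0, and it called 1.15% of all genes higher. Its log2 fold changes were 1.70 for *cdk1*, 1.47 for *ccna2*, 1.60 for *ccnb1.2*, 1.79 for *ccnb2* and 1.05 for *plk1*. EdgeR with no filter called 5 members and 2 pathway genes higher, where it called 0.502% of all 23902 genes. The values were 1.71, 1.47, 1.60, 1.80 and 1.05 for the same genes in that order. DESeq2 without CRISPR replicate 3 and control replicate 1, an alternative chosen after seeing the data, called 3 members and 1 pathway gene higher. That run called 1.35% of all genes higher and gave 1.55 for *cdk1*, 1.31 for *ccna2* and 1.29 for *ccnb1.2*. With edgeR these 4 libraries gave 0 calls of members, where edgeR called 0.0339% of all genes higher. The cause of the difference between tools and filters was not tested.

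Over both tools, leaving out one library at a time gave log2 fold changes of 1.50 to 1.87 for *cdk1*, 1.30 to 1.63 for *ccna2*, 1.29 to 1.77 for *ccnb1.2*, 1.22 to 2.06 for *ccnb2*, 0.96 to 1.2 for *plk1*, 0.24 to 0.75 for *cdc20*, 0.07 to 0.38 for *cdc25b* and -0.16 to 0.084 for *cdc25c*. The sign of *cdc25c* reversed without CRISPR replicate 2 (0.077 with edgeR, 0.084 with DESeq2) and without control replicate 2 (0.023 with edgeR, 0.025 with DESeq2). Members called higher ran from 0 with edgeR to 4 or 5 with DESeq2, and pathway genes called higher from 0 to 6. Of all genes, DESeq2 called from 0.583% (without control replicate 2) to 2.44% (without control replicate 1) higher in these runs. EdgeR called from 0% to 0.0336% (without CRISPR replicate 2) higher. Exon bins of the members with all CRISPR libraries above ran from 42 to 51, against 41 in all libraries, and bins below from 2 to 5, against 2. One library fewer makes such separation easier by construction.

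Deviations of samples with the same replicate number had r of -0.11, 0.20 and -0.04 across genes for numbers 1, 2 and 3. Only number 2 had a positive value. Genes are not independent replicates, so these values cannot decide whether the number pairs libraries. With the replicate block edgeR called 0 members, where it called 2 of all 15076 genes higher and 1 lower. That run gave 1.69 for *cdk1* and changed no call of a member. *ccnb2* rests on 12 counts in control replicate 3, the shallowest library, and varied by 56.8% over the CRISPR pools and 27.3% over the control pools (coefficient of variation).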

Other observations

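A second gene model, which the table names only as a provisional *cdc25c*, lies outside the members. It was at 1.51, 2.01 and 1.74 cpm in *dyrk1a* CRISPR replicates 1, 2 and 3, against 2.53, 2.12 and 2.22 cpm in control replicates 1, 2 and 3. Each CRISPR library was below every control library, and the log2 fold change was -0.40 ± 0.31 (SE, edgeR adjusted p = 0.613). Whether it shares reads with *cdc25c* was not tested. Within the CRISPR group, replicate 3 was the highest library for *cdk1*, *ccna2*, *ccnb1.2*, *ccnb2* and *cdc20* and the lowest for *cdc25b*.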
